A study of Mus musculus with 6 samples.

Results

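The kinetochore and spindle checkpoint genes are 38 named mouse genes of the centromere, the NDC80 complex, the spindle checkpoint and the control of anaphase, followed here by their transcripts in the uterus after loss of Indian hedgehog (Ihh). Members were found by gene symbol: 76 probe sets of the array carried exactly 1 platform symbol among the 38, and they stood for 37 of the 18193 genes so named on the array. Hjurp, the chaperone that brings CENP-A to centromeres, had only probe sets with several symbols and was not measured here. Of the 37 genes, 34 lay above the brightness limit for testing and 3 (Oip5, Cenph and Ska3) lay below it.

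The kinetochore is the protein machine that is built on the centromere of each chromosome and grips the microtubules of the mitotic spindle. Inner components sit on nucleosomes that hold the histone variant CENP-A, and outer components, led by the NDC80 complex, bind the microtubule. The spindle checkpoint reads unattached kinetochores and holds back the anaphase-promoting complex (APC/C) until all chromosomes are attached. In the uterus before implantation, steroid hormones decide which compartments divide, and Ihh, which the epithelium secretes, is a known link from progesterone in the epithelium to the stroma.

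Total RNA of mouse uterus was compared between 3 Ihh-ablated samples (PRcre/+ Ihhf/f, labelled Ihhd/d) and 3 control samples (Ihhf/f), each at day -1 of artificially induced decidualisation. Both groups carry the floxed Ihh alleles, and the Ihh-ablated group also carries Cre, driven by the locus of the progesterone receptor on 1 allele, so the Cre and the deletion go together and their effects cannot be told apart. The deletion depends on where that locus is active. Neither strain nor age is stated, nor whether each sample was a separate mouse, so that a p-value here speaks of the scatter among samples that might be technical repeats. In both groups the source name mentions a different model, an activated Smoothened allele, and the groups follow titles and genotypes. Each sample was read on 1 Affymetrix Mouse Genome 430 2.0 array, as the platform annotation gives it, and values are the authors' intensities on a linear scale. RNA of whole tissue cannot tell fewer dividing cells apart from less transcript per dividing cell.

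The Ihh probe set read 121.4, 93.3 and 135.4 in Ihh-ablated uteri and 163.9, 162.3 and 140.2 in control uteri, and its log2 difference of -0.43 did not pass the test (limma adjusted p = 0.164). Whether it lies within the deleted part is not given, so it may check nothing. Gli1, whose transcription reports Hedgehog signalling, fell (log2 difference -2.53, adjusted p = 0.000492). Control replicate 2 had the highest median intensity (142.5), and the other arrays stood at 121.4 to 125.8.

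Transcripts of 8 of the 34 tested members fell in Ihh-ablated uteri, 0 rose and 26 did not pass. The 8 were Ube2c, Bub1, Cenpa, Spc25, Nuf2, Cenpe, Cdc20 and Spc24, and their intensities were 1.80-fold to 3.09-fold lower. A call is an adjusted p under 0.05 in limma, corrected over all 33777 tested probe sets, with each gene represented by its brightest probe set. Over all 15530 genes tested, 1.53% fell (238) and 1.28% rose (199), 2.81% in either direction. The median log2 difference was -0.50 over the 34 members and -0.04 over all genes. Log2 differences of the members reached from -1.63 to 0.14 and lay below 0 in 29 of them, as they did in 56.7% of all genes. In 25 members every Ihh-ablated array lay below every control array, against 19.0% of all genes, and in 0 members did it lie above. A log2 difference of -0.5 or lower was found for 17 members (5.27% of all genes), made up of the 8 that fell and 9 that did not pass. An unadjusted p under 0.05 with a lower level in Ihh-ablated uteri was found for 24 members (14.2% of all genes).

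**Figure D1:**
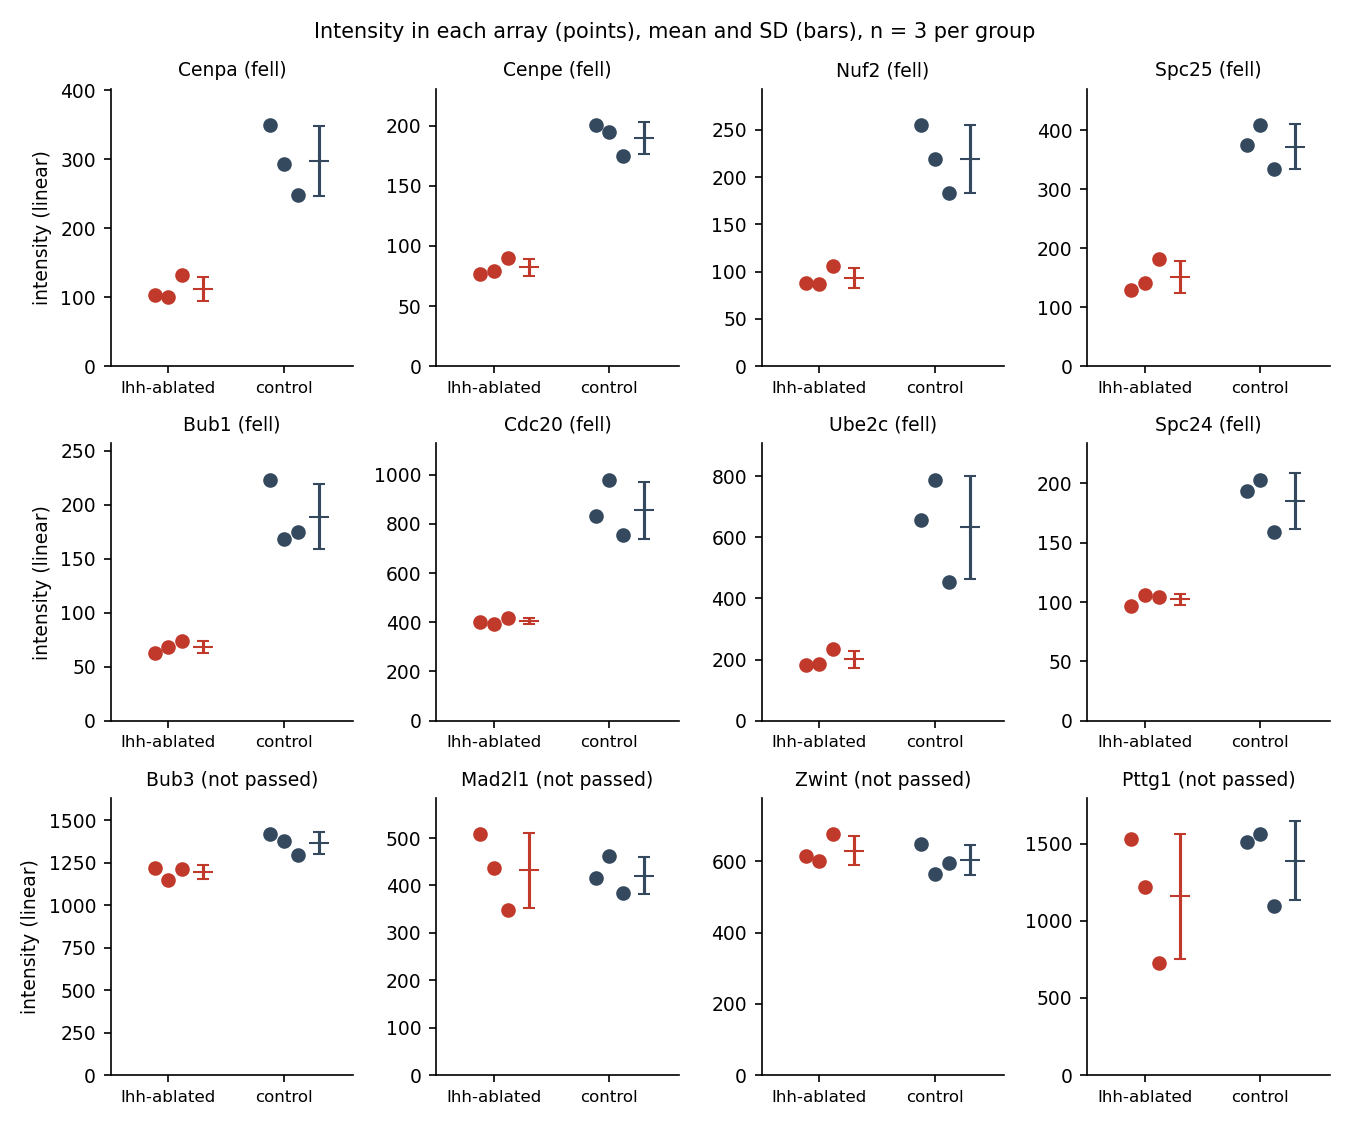
Intensity (linear scale, y axis from 0) of 12 members in each array, Ihh-ablated left and control right, with mean and SD (n = 3 per group) beside the points. The 8 members that fell show separate groups, as with Ube2c at 183.6 to 233.7 in Ihh-ablated and 452.5 to 788.6 in control uteri, while the groups overlap for Mad2l1, Zwint and Pttg1.

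Cenpa encodes the histone H3 variant that marks the centromere. It read 103.7, 99.7 and 131.6 in Ihh-ablated uteri, against 349.3, 293.2 and 247.8 in control uteri. Every Ihh-ablated array lay below every control array, and the control arrays were the more scattered in linear intensity, though not clearly so relative to their higher mean. The mean was 111.6 ± 17.4 in Ihh-ablated and 296.7 ± 50.8 in control uteri (SD, n = 3 each), 2.65-fold lower (log2 -1.41, SE 0.16, limma adjusted p = 0.00426). Another Cenpa probe set differed by -0.68 and did not pass (adjusted p = 0.105). Oip5 encodes a subunit of the Mis18 complex that prepares centromeres for new CENP-A. It read 64.99, 64.015 and 57.05 in Ihh-ablated and 82.4, 89.4 and 74.4 in control uteri, under the limit of 71.4 on average, and in the fit without that limit it differed by -0.40 (adjusted p = 0.158).

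The constitutive centromere-associated network, which sits on CENP-A chromatin through the cycle and links it to the outer kinetochore, had 0 calls among 11 tested members, with a median log2 difference of -0.36. Groups did not overlap for 8 of the 11, each of them lower in Ihh-ablated uteri. Over all genes, 1.53% fell, and 19.0% had groups apart and lower in Ihh-ablated uteri. Cenpk, a subunit of the CENP-H/I/K part, read 81.2, 91.2 and 89.5 in Ihh-ablated and 163.6, 130.3 and 122.2 in control uteri. Its log2 difference of -0.66 (95% interval -0.98 to -0.34) missed the threshold narrowly (adjusted p = 0.0518). Cenpn, which reads the CENP-A nucleosome, had 181.5, 162.3 and 167.1 in Ihh-ablated against 253.1, 306.4 and 224.7 in control uteri, a difference of -0.61 (adjusted p = 0.0570). Cenpm, a network subunit shaped like a small GTPase, stood at 100.4, 105.5 and 106.1 in Ihh-ablated and 166.3, 148.0 and 138.8 in control uteri (log2 -0.53, adjusted p = 0.0587). For these 3 genes the groups were apart, with the control arrays more scattered than the Ihh-ablated ones.

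Cenpi, the partner of Cenpk in the same subcomplex, read 88.8, 81.9 and 95.7 in Ihh-ablated and 138.0, 120.3 and 113.7 in control uteri (log2 -0.48, adjusted p = 0.0948). Cenpw, a histone-fold partner of Cenpt, read 188.5, 151.8 and 174.4 in Ihh-ablated and 284.4, 265.7 and 202.9 in control uteri (log2 -0.54, adjusted p = 0.104). Cenpt, which anchors the NDC80 complex, read 216.9, 263.7 and 258.7 in Ihh-ablated and 315.9, 318.2 and 310.9 in control uteri (log2 -0.36, adjusted p = 0.123). Groups of these 3 were also apart. Cenpl, the partner of Cenpn, read 146.9, 140.0 and 139.4 in Ihh-ablated and 168.9, 197.2 and 165.0 in control uteri (log2 -0.31, adjusted p = 0.172). Cenpq, of the CENP-O part, read 127.3, 129.5 and 124.0 in Ihh-ablated and 188.3, 133.6 and 166.3 in control uteri (log2 -0.34, adjusted p = 0.198). In both genes the groups were apart, though for Cenpq the lowest control array came close to the Ihh-ablated ones. Cenph lay below the brightness limit at 56.3, 47.8 and 52.4 in Ihh-ablated and 106.6, 88.2 and 92.8 in control uteri. In the fit without that limit it fell by 0.88 on the log2 scale (adjusted p = 0.0254), as 1.00% of all genes fell there.

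Other inner centromere genes showed overlapping groups on their brightest probe set. Cenpc1, the scaffold that bridges CENP-A chromatin and the outer kinetochore, read 212.1, 191.4 and 189.9 in Ihh-ablated and 276.4, 186.1 and 215.5 in control uteri, a difference of -0.17 with an interval from -0.52 to 0.17 (adjusted p = 0.496). Cenpo and Cenpp belong to the CENP-O part of the network. The brightest Cenpo probe set read 149.2, 152.0 and 149.2 in Ihh-ablated and 149.95, 147.94 and 152.1 in control uteri (log2 0.00, interval -0.24 to 0.24), and that of Cenpp 175.5, 159.7 and 161.7 in Ihh-ablated and 161.4, 166.4 and 161.4 in control uteri (log2 0.02, interval -0.22 to 0.27). Cenpb binds a short DNA motif in centromeric repeats, and its arrays read 667.0, 601.8 and 593.4 in Ihh-ablated and 525.6, 601.1 and 568.5 in control uteri. Its difference of 0.14 (interval -0.07 to 0.35, adjusted p = 0.391) was the highest among the members. Cenpj carries a centromere name but encodes a centriole protein, and it read 99.4, 114.2 and 124.5 in Ihh-ablated against 145.8, 92.3 and 141.5 in control uteri (log2 -0.14, interval -0.57 to 0.28).

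The outer kinetochore that binds microtubules held 3 of the 8 falls among 6 tested members, and the groups of all 6 were apart. Over all genes, 1.53% fell, and 19.0% had groups apart and lower in Ihh-ablated uteri. Spc25, a subunit of the NDC80 complex, read 129.4, 141.6 and 182.2 in Ihh-ablated uteri and 374.2, 408.4 and 333.4 in control uteri. The lowest control array thus stood well over the highest Ihh-ablated array, and the fall was 2.48-fold (log2 -1.31, SE 0.15, adjusted p = 0.00398). Nuf2, which pairs with Ndc80 at the microtubule end of the complex, read 87.5, 86.4 and 105.5 in Ihh-ablated against 255.1, 219.6 and 183.4 in control uteri (2.34-fold lower, log2 -1.23, adjusted p = 0.00623). Spc24, the partner of Spc25 at the centromere end, read 97.0, 105.5 and 104.3 in Ihh-ablated against 193.8, 203.2 and 158.7 in control uteri (1.80-fold lower, log2 -0.85, adjusted p = 0.0149). Spc24 was the weakest of the 8 calls and was lost without any 1 Ihh-ablated array or control replicate 1 (adjusted p = 0.0522 to 0.0878), with log2 differences between -0.96 and -0.78 over the 6 single-array omissions.

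Ndc80 itself, the microtubule-binding subunit that names the complex, read 67.1, 72.5 and 73.4 in Ihh-ablated and 110.9, 120.6 and 94.7 in control uteri. Its difference of -0.61 (interval -0.91 to -0.31) missed the threshold with an adjusted p of 0.0527. All 4 subunits of the complex were therefore lower in each Ihh-ablated array than in each control array (19.0% of all genes were). Of the 4, 3 passed (1.53% of all genes fell). Dsn1, of the MIS12 complex that ties NDC80 to the inner kinetochore, read 85.01, 100.65 and 101.5 in Ihh-ablated and 137.2, 122.6 and 120.7 in control uteri (log2 -0.41, adjusted p = 0.125). Ska1, of the SKA complex that holds on to shrinking microtubules, read 89.5, 87.7 and 100.8 in Ihh-ablated and 108.0, 136.9 and 108.7 in control uteri (log2 -0.34, adjusted p = 0.191). Ska3, of the same complex, lay under the brightness limit at 43.6, 54.0 and 50.5 in Ihh-ablated and 69.1, 141.3 and 68.3 in control uteri, where replicate 2 stood alone (log2 -0.83 without the limit, adjusted p = 0.160).

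Cenpe, the kinesin of the outermost kinetochore that carries chromosomes to the spindle equator, fell. It read 76.9, 79.2 and 90.1 in Ihh-ablated and 200.4, 194.8 and 175.1 in control uteri, a tight split with 82.1 ± 7.1 against 190.1 ± 13.3 (SD, n = 3 each; 2.32-fold lower, log2 -1.21, adjusted p = 0.0027). Cenpf, a large coiled-coil protein of the same layer, read 172.9, 176.4 and 181.6 in Ihh-ablated and 188.8, 257.6 and 187.8 in control uteri on its brightest probe set (log2 -0.24, adjusted p = 0.331), with groups narrowly apart. Another of its probe sets read 101.3, 102.9 and 134.8 in Ihh-ablated and 258.7, 335.2 and 237.2 in control uteri, and that 1 fell (log2 -1.29, adjusted p = 0.00759).

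**Figure D2:**
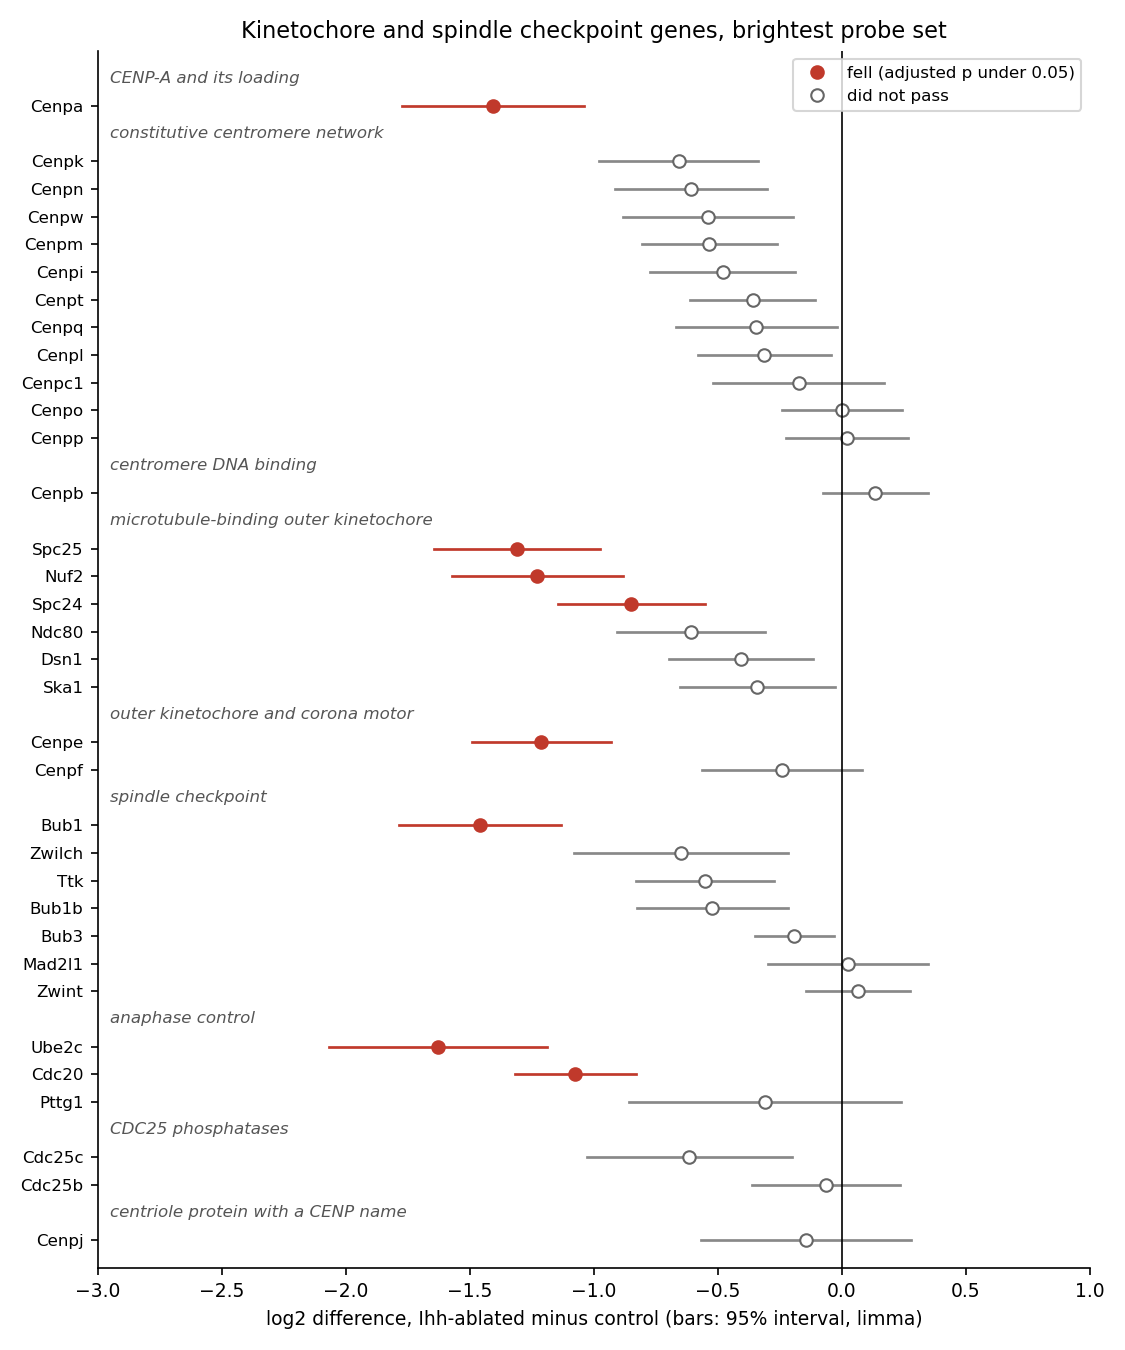
Log2 difference (Ihh-ablated minus control) of the 34 tested members by their brightest probe set, grouped by role, with 95% intervals from limma. Filled points are the 8 that fell, and the remaining ones lie between -0.66 and 0.14.

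Of 7 spindle checkpoint genes, 1 fell (1.53% of all genes fell) and 6 did not pass. Groups of 5 of the 7 were apart and lower in Ihh-ablated uteri (19.0% of all genes). The median log2 difference of the 7 was -0.52. Bub1, the kinase that recruits checkpoint proteins to kinetochores and marks centromeric histone H2A, read 62.8, 68.7 and 73.5 in Ihh-ablated uteri and 223.4, 168.5 and 175.1 in control uteri. Its mean of 68.3 ± 5.4 in Ihh-ablated against 189.0 ± 29.9 in control uteri (SD, n = 3 each) was 2.75-fold lower (log2 -1.46, SE 0.14, adjusted p = 0.00253). Bub3, which brings Bub1 to the kinetochore, read 1219, 1148 and 1214 in Ihh-ablated and 1417, 1380 and 1293 in control uteri. These groups were apart too, but the difference was only -0.19 (interval -0.35 to -0.03, adjusted p = 0.161).

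Ttk, the kinase MPS1 that starts checkpoint signalling, read 103.3, 108.5 and 99.4 in Ihh-ablated and 165.6, 154.5 and 136.9 in control uteri (log2 -0.55, adjusted p = 0.0572). Zwilch, of the RZZ complex that loads dynein and checkpoint proteins, read 63.3, 65.6 and 79.2 in Ihh-ablated and 133.2, 80.8 and 117.8 in control uteri (log2 -0.65, adjusted p = 0.112). Bub1b, which encodes BUBR1 of the mitotic checkpoint complex, read 245.7, 193.4 and 263.3 in Ihh-ablated and 327.4, 360.6 and 314.4 in control uteri on its brightest probe set (log2 -0.52, adjusted p = 0.0849). Groups of all 3 were apart. Another Bub1b probe set fell, with 151.9, 109.2 and 168.4 in Ihh-ablated and 245.3, 255.8 and 243.6 in control uteri (log2 -0.82, adjusted p = 0.0383).

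Mad2l1 and Zwint, described in full after their values were seen, had overlapping groups. Mad2l1 encodes MAD2, the checkpoint protein that seizes Cdc20, and it read 508.2, 437.9 and 349.2 in Ihh-ablated and 416.8, 462.0 and 384.0 in control uteri. Its difference was 0.02 with an interval from -0.30 to 0.35, which holds values of either sign. Zwint, which helps to dock the RZZ complex, read 613.7, 601.1 and 676.4 in Ihh-ablated and 647.7, 564.9 and 595.6 in control uteri (log2 0.07, interval -0.14 to 0.27). Its 6 tested probe sets differed by -0.25 to 0.16, and 0 of them passed.

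Genes of anaphase control gave 2 falls among 3 (1.53% of all genes fell). Ube2c, the ubiquitin-conjugating enzyme that works with the APC/C, had the largest fall of all members. It read 183.6, 184.6 and 233.7 in Ihh-ablated and 656.5, 788.6 and 452.5 in control uteri, 200.6 ± 28.6 against 632.5 ± 169 (SD, n = 3 each; 3.09-fold lower, log2 -1.63, SE 0.19, adjusted p = 0.00504). Control replicate 3 was the lowest control array, yet it stood above each Ihh-ablated array. Cdc20, the APC/C activator that the checkpoint holds back, read 401.6, 393.8 and 416.6 in Ihh-ablated and 831.4, 980.3 and 754.8 in control uteri (2.11-fold lower, log2 -1.07, adjusted p = 0.00255). All 3 Cdc20 probe sets fell, the other two by 0.86 and 0.81 on the log2 scale.

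Pttg1 encodes securin, which the APC/C destroys to release separase. It read 1529, 1220 and 726.7 in Ihh-ablated and 1509, 1561 and 1095 in control uteri, a wide and overlapping spread. The difference of -0.31 had an interval from -0.86 to 0.24 (adjusted p = 0.449), and its 3 probe sets, at -0.31, -0.21 and -0.07, did not pass. Replicate 3 was the lowest array of its group in both genotypes. The brightest Pttg1, Bub3 and Cenpo probe sets carry the suffix of the platform for sets shared between transcripts, and that of Cdc20 the suffix for possible cross-hybridisation, so related transcripts could add to them.

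The CDC25 phosphatases, which switch on cyclin-dependent kinases at entry into mitosis, gave 0 calls (1.53% of all genes fell). Cdc25c read 119.0, 102.0 and 105.3 in Ihh-ablated and 146.9, 223.9 and 139.9 in control uteri, with groups apart and control replicate 2 high (log2 -0.62, adjusted p = 0.114). Cdc25b read 156.1, 174.1 and 187.5 in Ihh-ablated and 188.1, 157.3 and 196.9 in control uteri (log2 -0.06, interval -0.36 to 0.23).

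Probe sets of the same gene did not always give the same size. Of the 60 tested probe sets of the members, 12 fell and 0 rose (1.11% of all tested probe sets fell), and 15 members had more than 1 tested probe set. By any probe set, 10 members had a fall, Cenpf and Bub1b being added to the 8. A dimmer Spc25 probe set read 81.0, 80.1 and 68.3 in Ihh-ablated and 60.5, 97.9 and 77.7 in control uteri, with a difference of -0.02 beside -1.31 for the brightest. Cenpp (-0.50 and 0.02), Cenpo (-0.59 to 0.00) and Cenpb (-0.40 and 0.14) also spread, without a call. For Cenpo, the groups of 2 dimmer probe sets were apart and lower in Ihh-ablated uteri (log2 -0.59 and -0.28, adjusted p = 0.138 and 0.215), unlike those of the brightest. The same held for a dimmer probe set of Cenpp (log2 -0.50, limma adjusted p = 0.0719) and of Cenpb (log2 -0.40, limma adjusted p = 0.211). When all tested probe sets of a gene were averaged, 12 members fell, with Cenpf, Cenpm, Cenpn and Ndc80 added (1.67% of all genes fell), and with the dimmest tested probe set 6 did, Cenpa and Spc25 being lost (1.17% of all genes).

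**Figure D3:**
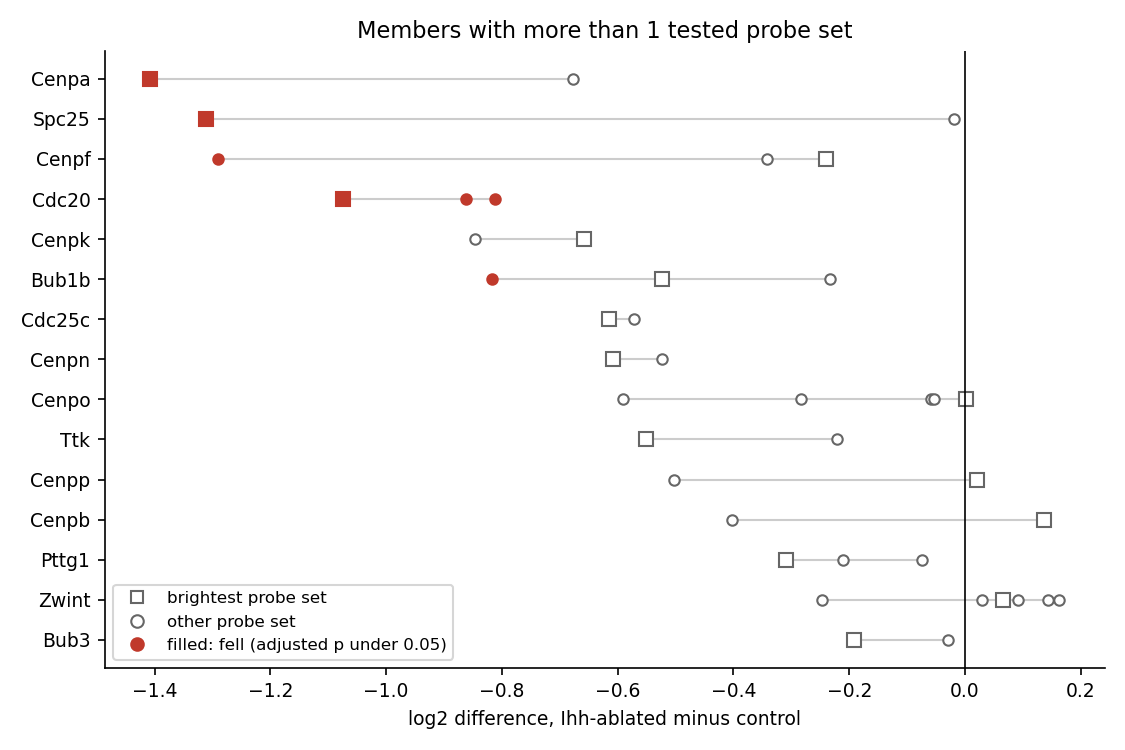
Log2 difference (Ihh-ablated minus control) of every tested probe set of the 15 members with more than 1. Squares are the brightest probe set of a gene and filled symbols are probe sets that fell. Cdc20 has 3 filled symbols, while Cenpf and Bub1b have 1 each that is not the brightest.

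The remaining machinery was read from a list of genes that are not members. Of 47 tested, 11 fell and 0 rose (1.53% of all genes fell), with a median log2 difference of -0.17. The chromosomal passenger complex, which corrects wrong attachments, and the shugoshins, which guard centromeric cohesion, gave 6 falls among 6 tested genes. Birc5 (survivin) read 134.7, 139.0 and 156.1 in Ihh-ablated and 528.1, 434.2 and 361.7 in control uteri (log2 -1.61, adjusted p = 0.00194). Incenp, the scaffold of the complex, differed by -0.88 (adjusted p = 0.00751), and the shugoshins Sgo2a and Sgo1 by -0.92 (0.0105) and -0.83 (0.0139). Of the dimmer tested Incenp probe sets, that at -0.79 fell (limma adjusted p = 0.0215), while those at -0.25 and -0.47 did not pass (0.223 and 0.103). The number of falls in this list depended on single arrays. It was 2 without Ihh-ablated replicate 1, 3 without Ihh-ablated replicate 2, Ihh-ablated replicate 3 or control replicate 1, 5 without control replicate 2 and 6 without control replicate 3. Birc5 and Incenp kept the call in all 6 omissions. Sgo2a lost it without Ihh-ablated replicate 1 or 3 (adjusted p = 0.0628 and 0.0516), and Sgo1 without any 1 Ihh-ablated array or control replicate 1 (0.0537 to 0.0846).

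Among 9 other checkpoint genes, the mitotic kinases Nek2 (log2 -1.11, adjusted p = 0.00454) and Plk1 (-0.97, 0.0266) and the dynein adaptor Spdl1 (-0.68, 0.0424) fell, and Kntc1 of the RZZ complex did not pass (-0.56, 0.0663). The other kinetochore and centromere genes gave 0 calls among 11 (median -0.22), the nearest by unadjusted p being Cenpu at -0.67 (limma adjusted p = 0.0894), Knl1 at -0.44 (0.104) and Itgb3bp at -0.74 (0.107), and Rsf1 at 0.26 (0.180). Among 21 genes of APC/C subunits, separase and their regulators, the APC/C inhibitor Fbxo5 (-0.67, 0.0151) and the separase gene Espl1 (-0.63, 0.0271) fell. The other 19, with all listed APC/C subunits among them, did not pass, as with Cdc16 at -0.20 (limma adjusted p = 0.164) and Anapc1 at -0.17 (0.273). Dimmer tested Nek2 probe sets did not pass (log2 -0.13 and -0.60, limma adjusted p = 0.537 and 0.0614). On its brightest probe set, Nek2 kept the call in all 6 omissions of a single array. Plk1, Fbxo5 and Espl1 each lost it without any 1 Ihh-ablated array or control replicate 1, with limma adjusted p values up to 0.112, 0.0797 and 0.132. Spdl1 kept it in 1 omission, that of control replicate 3, and reached an adjusted p of 0.173 in the others. Quantile normalization ended the calls of Espl1 (0.0521) and Spdl1 (0.0940), and centring arrays on their median those of Fbxo5 (0.0550), Espl1 (0.0673) and Spdl1 (0.0827). Over all 47 genes the calls numbered between 3 and 16 with single arrays left out. The 3 were found without Ihh-ablated replicate 1, where 0.515% of all genes fell, and the 16 without control replicate 3, where 7.57% fell.

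Promoters of the members were searched for letters known from cell cycle genes, since several members moved together. The cell cycle homology region (CHR, letters TTTGAA or TTTAAA) and the letters CCAAT bound by NF-Y are known from genes transcribed in G2 and M phase, and E2F sites (TTCCCGC or TTGGCGC or TTCGCGC or TTGCCGC) from genes of G1 and S phase. Both strands were searched over 250 bases before and 50 after each annotated start (RefSeq, GRCm38.p6), where 34 of the 38 members had a window. CHR letters were present for 19 of the 34 members (55.9%), against 28.2% of 17492 protein-coding genes. CCAAT was present for 23 (67.6%), against 42.3%, and both together for 16 (47.1%), against 11.5%. An E2F match was present for 9 (26.5%), against 13.7%. Over all 27025 genes of the table the shares were 30.6% for CHR, 41.1% for CCAAT, 12.2% for both and 10.9% for E2F. These shares are a description, and a match is not evidence that a factor binds.

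The stretches of 5 members that fell and hold both CHR and CCAAT letters are shown with Bub1, which fell and holds CCAAT alone, from 100 bases before to 50 after the start, 5′ to 3′, with CHR and CCAAT matches of either strand in capitals. On GRCm38.p6 they lie at chr5:30666786-30666935 (+ strand), chr3:135212463-135212612 (+ strand), chr2:69206164-69206313 (- strand), chr4:118437294-118437443 (- strand), chr2:164769829-164769978 (+ strand) and chr2:127831810-127831959 (- strand).
Cenpa: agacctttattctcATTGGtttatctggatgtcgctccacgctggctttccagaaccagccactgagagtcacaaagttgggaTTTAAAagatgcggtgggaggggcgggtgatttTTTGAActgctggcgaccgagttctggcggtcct
Cenpe: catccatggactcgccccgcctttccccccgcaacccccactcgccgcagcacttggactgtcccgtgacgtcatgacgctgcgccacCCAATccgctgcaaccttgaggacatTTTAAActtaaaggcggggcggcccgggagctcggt
Spc25: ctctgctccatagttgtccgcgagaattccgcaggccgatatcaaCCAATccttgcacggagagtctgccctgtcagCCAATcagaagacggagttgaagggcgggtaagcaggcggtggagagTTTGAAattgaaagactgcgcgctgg
Cdc20: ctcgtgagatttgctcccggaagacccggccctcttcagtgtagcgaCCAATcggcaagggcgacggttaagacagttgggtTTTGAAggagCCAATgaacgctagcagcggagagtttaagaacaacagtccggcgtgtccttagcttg
Ube2c: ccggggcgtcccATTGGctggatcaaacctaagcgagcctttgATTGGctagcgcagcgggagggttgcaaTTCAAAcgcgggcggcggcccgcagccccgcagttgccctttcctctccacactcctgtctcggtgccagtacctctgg
Bub1: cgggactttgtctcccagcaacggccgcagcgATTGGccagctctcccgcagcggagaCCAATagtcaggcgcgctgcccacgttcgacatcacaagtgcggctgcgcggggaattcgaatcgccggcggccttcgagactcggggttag

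In these stretches the CHR letters begin 29 bases before the start in Ube2c, 18 before it in Cdc20, 17 before and 16 after it in Cenpa, 14 after it in Cenpe and 24 after it in Spc25. Of the 7 members that fell and had a window, 5 held CHR, 6 held CCAAT and 0 held an E2F match. Nuf2 was the 1 of the 7 without any of these letters in its window. Among 23 members with a window that did not pass, 11 held CHR, 14 held CCAAT and 8 held E2F letters. CHR and CCAAT together were held by 5 of the 7 and by 9 of the 23, against 11.5% of protein-coding genes.

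For comparison, 3 members whose groups overlapped are shown in the same way, at chr10:72654746-72654895 (+ strand), chr6:66535121-66535270 (+ strand) and chr11:43425932-43426081 (- strand). Zwint holds CHR and CCAAT although its difference was 0.07, and Mad2l1 and Pttg1 hold neither in their windows.
Zwint: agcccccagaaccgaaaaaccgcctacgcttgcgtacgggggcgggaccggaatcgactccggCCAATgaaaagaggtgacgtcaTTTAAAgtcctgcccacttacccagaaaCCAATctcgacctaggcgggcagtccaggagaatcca
Mad2l1: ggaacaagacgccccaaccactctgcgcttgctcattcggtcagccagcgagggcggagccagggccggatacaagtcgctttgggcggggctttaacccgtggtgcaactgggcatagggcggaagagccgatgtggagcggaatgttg
Pttg1: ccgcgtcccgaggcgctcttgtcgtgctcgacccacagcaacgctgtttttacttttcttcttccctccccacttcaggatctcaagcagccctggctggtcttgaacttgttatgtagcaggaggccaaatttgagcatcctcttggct

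**Figure D4:**
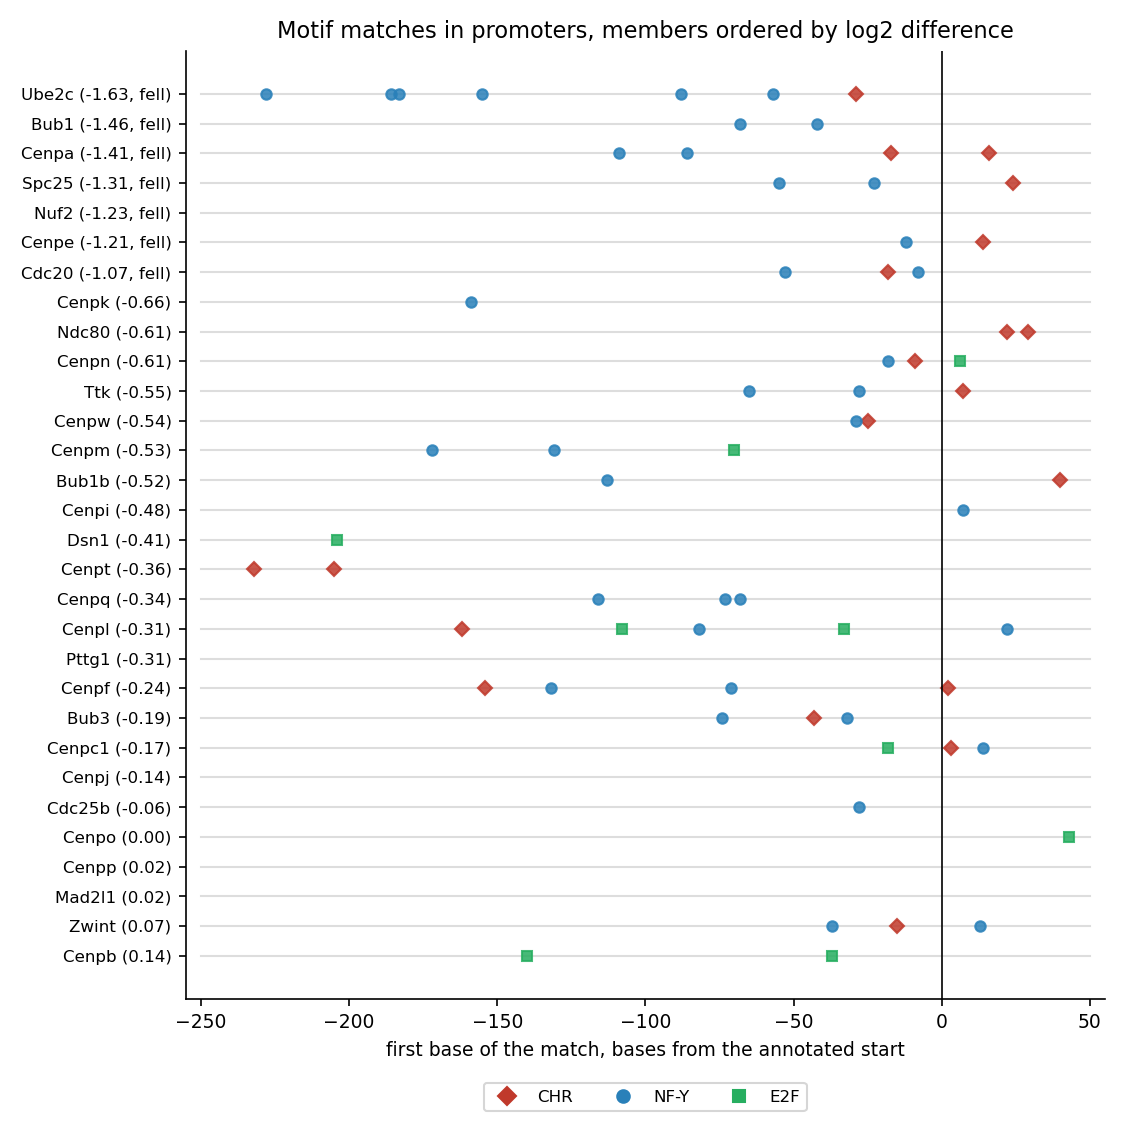
Position of the first base of each CHR, NF-Y (CCAAT) and E2F match, in bases from the annotated start (x axis), for the 30 tested members with a window, ordered by log2 difference from -1.63 at the top to 0.14 at the bottom. Where a gene has more than 1 window, the one at the lowest coordinate is drawn. A CHR match begins within 50 bases of the start in 5 of the 7 members that fell and in 9 of the 23 that did not pass. The share of all genes with a match so near the start was not counted, so these counts are a description only.

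Arrays of a group did not stand alike for these genes. Control replicate 3 was the lowest control array for 23 of the 34 members (67.6%), against 31.7% of all genes, and Ihh-ablated replicate 3 was the highest of its group for 18 (52.9%), against 35.2%. Log2 levels were also taken relative to each gene's mean over the 6 arrays. Over all 34 tested members the medians were -0.23, -0.25 and -0.22 in Ihh-ablated replicates 1 to 3. They were 0.33, 0.31 and 0.13 in control replicates 1 to 3. For the 8 fallen members, which were called by this same group difference, they were -0.75, -0.72 and -0.46, against 0.76, 0.67 and 0.41. Both outermost arrays for the 8 are from replicate 1, while over the 34 the lowest was Ihh-ablated replicate 2. In each set the arrays of replicate 3 were nearest to each other, though the Ihh-ablated arrays hardly differed over the 34. All genes had medians between -0.03 and 0.05.

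Leaving out any 1 of 5 arrays (all but control replicate 3) left 7 to 9 members called (0.515% to 0.953% of all genes fell), and leaving out control replicate 3 raised the number to 17, all lower in Ihh-ablated uteri (7.57% of all genes were lower then). The 17 include the 8 named above, and the added members were Bub1b, Cdc25c, Cenpi, Cenpk, Cenpm, Cenpn, Cenpw, Ndc80 and Ttk (adjusted p = 0.0151 to 0.0486). With single arrays left out, 7 of the 8 kept the call in all 6 fits, Spc24 being the exception. All 8 were kept without both control replicate 3 and Ihh-ablated replicate 2 (4.15% of all genes lower), a pair left out because of the marker values that follow. Array weights gave 15 members that fell (3.05% of all genes) and a replicate block 9 (3.00%).

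Markers of other tissues differed between the arrays. The summed intensity of 7 adipocyte markers ranged from 5862 to 15518 in Ihh-ablated and from 1734 to 7440 in control uteri, and 0 of the 7 passed. That of 6 exocrine pancreas markers was 54432 in Ihh-ablated replicate 2 and 774.5 to 2070 in the other arrays. The 8 skeletal muscle markers summed to 2051 to 2643 in Ihh-ablated and 5093 to 12970 in control uteri, with the peak in control replicate 3. Of 7 tested, 1 fell (1.53% of all genes fell). No marker of these lists was at 0 in every array.

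Uterine compartments also shifted in part. The 6 gland markers summed to 3016 to 4625 in Ihh-ablated and 1809 to 1942 in control uteri, and 3 of 5 tested rose. Over all genes, 1.28% rose and 1.53% fell. The 12 epithelial markers summed to 19054 to 20779 in Ihh-ablated and 13781 to 19673 in control uteri, with 0 calls. The 10 stroma markers summed to 37894 to 38548 in Ihh-ablated and 38965 to 43128 in control uteri (2 fell, 1 rose). Smooth muscle markers lay at 51472 to 51561 in Ihh-ablated and 49828 to 53962 in control uteri (1 of 8 fell), endothelial markers at 3648 to 4125 in Ihh-ablated and 3703 to 4100 in control uteri (1 of 6 fell), and leukocyte markers at 1938 to 2208 in Ihh-ablated and 2064 to 2219 in control uteri (0 of 7 called). The part of these compartments, and of the pancreas and skeletal muscle markers, in the members' values was not tested.

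With the mean log2 adipocyte level of each array as a covariate, 0 of the 34 members passed, and 16 genes of the whole array did (0.0966% of all genes lower). The members' median log2 difference was then -0.42, and the 8 named members stood at -1.57 for Ube2c, -1.41 for Spc25, -1.36 for Bub1, -1.31 for Cenpa, -1.21 for Cenpe, -1.12 for Nuf2, -1.06 for Cdc20 and -0.78 for Spc24 (limma adjusted p = 0.0705 to 0.266). This term uses up 1 of the 4 residual degrees of freedom. The 7 adipocyte markers behind it were unequal between the groups, with a median log2 difference of 1.26 (Ihh-ablated minus control).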

How the data were processed

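Total RNA of 6 mouse uteri samples was labelled as biotinylated cRNA for an Affymetrix array, per the labels' protocols. The deposited table gives a linear intensity for each probe set as processed by the authors; how they summarised, background-corrected and normalized is not given in the sources used here. A floor of 16, which raised 1821 values, preceded the log2 step. Array medians of log2 differed by at most 0.231, and no further normalization was applied. Control probe sets (64 of 45101) were left out. Of the other 45037, 34945 had 1 gene symbol in the platform annotation, 932 several and 9160 none, and only the first kind was named. The dimmest 25% (mean log2 up to 6.16, an intensity of 71.4) were dropped, and 33777 probe sets remained.

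Groups and replicate numbers came from the sample titles. Genotypes were compared with limma 3.58.1 (R 4.3.3, lmFit and eBayes with an intensity trend), with Benjamini-Hochberg adjustment over all tested probe sets. SDs are of linear intensities, and log2 differences, SEs and 95% intervals come from the model. In simulated data of 33777 probe sets, 73 of 100 changed 2-fold and 98 of 100 changed 4-fold were recovered. Of the 174 calls made there, 3 were false. These counts hold for the simulation alone and give no error rate for the real arrays. Those arrays differed in markers of other tissues, and the share of real calls that are false was not tested. Precision is limited by having 3 arrays in each group. Named were up to 4 members of lowest p per role, members with groups apart and those of roles without a call, and up to 4 genes per list of other machinery; Mad2l1 and Zwint are outside this rule and were chosen after their values were seen. Members, lists, alternatives and this rule were chosen with earlier results of these data known. Alternatives changed normalization, floor, filter, variance model, array weights, replicate block, arrays, an adipocyte covariate, threshold and the probe set of a gene. Plots used matplotlib 3.10.9 (Python 3.11.15).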

Additional observations from a re-analysis of the deposited data

How the results depend on the processing

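Counts of calls moved by over 1.5 times under some of the alternatives. The 8 member calls became 15 with array weights and 0 with the adipocyte covariate, and ranged from 7 to 17 with single arrays left out, and the 12 called member probe sets became 20 and 0, and ranged from 8 to 24. The 11 calls among other kinetochore, checkpoint and anaphase genes became 7 after centring each array on its median, 6 without the dimmest 50% of probe sets, 0 with the covariate and 3 at an adjusted p under 0.01, and ranged from 3 to 16 with single arrays left out. The 437 genes called over the whole array became 266 with median-centred arrays, 226 without the intensity trend, 782 with array weights, 16 with the covariate, 99 at an adjusted p under 0.01 and 1105 without both doubted arrays, and ranged from 111 to 1890 with single arrays left out, the highest again without control replicate 3. The 25 members with groups apart became 15 of 23 with the lowest 50% left out. The cause of these moves was not tested, apart from the smaller number of genes or the stricter threshold that an alternative itself sets. In every alternative with a call among members, each call was a lower level in Ihh-ablated uteri. Whether equal replicate numbers pair the arrays stayed undecided. Deviations of same-numbered arrays correlated at -0.15, -0.04 and 0.25 for replicates 1 to 3. Each Ihh-ablated array was also set against the control arrays of other numbers. Those correlations were -0.24 to 0.32, -0.03 to 0.09 and -0.24 to 0.03, so only for replicate 3 was the same number highest. With 3 arrays in each group these values cannot exclude a pairing. With the replicate block, 9 members and 922 genes were called. Bub1 and Cenpe are dimmer than the lowest 50% limit and were not tested there. Members near the brightness limit, Ndc80 and Bub1 in Ihh-ablated uteri among them, have no stated background, so the size of their differences is uncertain.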
